A study of Drosophila melanogaster with 3 samples.

Results

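Row peaks just downstream of a transcription start site (TSS) are described here, that is, binding sites whose highest point lies inside the beginning of a gene and not in front of it. A peak summit was taken when a protein-coding TSS of the Ensembl annotation was no more than 500 bp away, when all TSSs that near were on 1 strand, and when the summit lay 1 to 500 bp downstream of the nearest of them. In the authors' conservative peak list 438 of 10483 summits met this rule, 4.18% of the list and 14.6% of the 2996 summits at promoters with TSSs on 1 strand. They belonged to 408 genes, which is 2.92% of the 13968 protein-coding genes, and 29 of these genes had more than 1 such summit.

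The peaks came from chromatin immunoprecipitation and sequencing (ChIP-seq) of whole Drosophila melanogaster embryos, 0 to 24 h old, of the strain row-GFP, in which the Row protein carries enhanced green fluorescent protein. The tagged protein was pulled down with an antibody against the tag, from chromatin sonicated to 200 to 800 bp. There was 1 group of 3 biological replicates, labelled as separate biosamples of that strain, and no second genotype, stage or treatment. A control named in the labels was not analysed here, and whole embryos mix all cell types, so strong binding in few cells and weak binding in many cannot be told apart.

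The gene row encodes a DNA-binding protein with zinc fingers that forms complexes with the related protein WOC and with the heterochromatin protein HP1c, a form of HP1 found at active genes in Drosophila. The first bases after a TSS are where RNA polymerase II pauses and where the first nucleosome of a gene usually sits. The first intron is a common place for enhancers and for alternative promoters of the same gene.

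The main list was made from replicates 1 and 2 and carries signal values of a pool, so none of the 3 replicates is independent of it. The replicates' own lists held 10959, 8564 and 7608 peaks on the chromosome arms. Replicate 1 stood apart: 667 of its one-strand promoter summits were downstream (18.5%), against 289 in replicate 2 (12%) and 289 in replicate 3 (11.8%). The mean was 14.1% ± 3.81 (SD, n = 3). Read depth is unknown, so a difference in list length was not tied to depth. SDs and p-values over the replicates measure the spread between these 3 samples only.

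Sequences are shown for summits inside first introns first, because their mean GC content dipped at the summit. The 101 bases centred on each of the 4 strongest such summits are given, among those on arms used for printing whose window touches no annotated exon. They are written 5′ to 3′ on the strand of transcription in assembly dm6, and capitals mark runs of 8 or more A or T.
CG31612, chr2L:21794908-21795008, minus strand: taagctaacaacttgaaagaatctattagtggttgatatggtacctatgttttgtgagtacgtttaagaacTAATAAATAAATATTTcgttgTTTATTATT
Cftr, chr3R:24543180-24543280, minus strand: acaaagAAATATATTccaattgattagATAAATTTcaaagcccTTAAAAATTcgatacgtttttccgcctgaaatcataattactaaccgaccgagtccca
rudhira, chrX:11818546-11818646, plus strand: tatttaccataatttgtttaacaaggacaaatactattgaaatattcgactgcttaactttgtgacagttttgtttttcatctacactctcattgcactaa
Eip63F-1, chr3L:3928641-3928741, minus strand: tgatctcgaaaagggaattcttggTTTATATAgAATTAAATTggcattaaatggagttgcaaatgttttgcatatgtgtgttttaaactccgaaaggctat
The GC content of these windows was 25.7% for CG31612, 32.7% for Cftr, 28.7% for rudhira and 31.7% for Eip63F-1. Runs of A or T reached 16 bases in CG31612, 9 in Cftr and 9 in Eip63F-1, and the rudhira window held 0 runs of that length. The windows of rudhira and Eip63F-1 were chosen after their values were seen. Not all arms were used for printing, so a stronger intronic summit is missing here. That of Sik3 had a signal value of 2188, above the 2126 of Cftr, and no sequence from its arm is printed. GC within 100 bp of the Sik3 summit was 49.8%. The 4 windows thus do not show that every strong intronic summit was poor in G and C.

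Short motif matches near the summits follow, 30 bases each, on the strand of transcription, with the match in capitals. The first 5 show the 3 motifs that most members held within 100 bp of the summit on either strand: TCAGT, the core of the initiator element, CGATA, the core bound by the boundary factor BEAF, and TATAAA, the TATA box. A match on the other strand is printed as its reverse complement. All 5 lay downstream of the TSS: 507 bp at CG8128, 31 and 126 bp at sqh, 197 bp at Cftr and 53 bp at CG9399. They are matches to the letters only, not elements placed at these promoters.
CG8128, TCAGT, chrX:15698000-15698029, plus strand: atagtgatacttTCAGTtgaatctatattt
sqh, CGATA, chrX:6224472-6224501, minus strand: acagtgggcgccCGATAaggtggacttgta
Cftr, CGATA, chr3R:24543211-24543240, minus strand: cccttaaaaattCGATAcgtttttccgcct
sqh, TATAAA, chrX:6224377-6224406, minus strand: taaaactatttaTTTATAaatataatttgt
CG9399, TATAAA, chr3R:9574141-9574170, minus strand: gctaaaattattTTTATAattgtgtaattg
The next 3 show TATCGATA, the DNA replication-related element (DRE) bound by DREF, which contains the CGATA core. They and the 3 CA repeats after them, CACACACA on either strand, were chosen after their values were seen.
RpL26, DRE, chr3L:18898850-18898879, plus strand: gatgacagtgtTATCGATActagctgaatt
cnc, DRE, chr3R:23190146-23190175, minus strand: ttacagtgcacTATCGATAtggaggaccca
Karybeta3, DRE, chr3R:4649356-4649385, plus strand: cagtcgcgtttTATCGATAacggcggagca
velo, CA repeat, chr3L:6747348-6747377, minus strand: catagcaatgtTGTGTGTGcagttattttg
CG11151, CA repeat, chrX:13740156-13740185, plus strand: cgcaccacacaCACACACActcccaacgcg
ph-d, CA repeat, chrX:2123169-2123198, minus strand: ccgacgcgacgCACACACAccctaccaccg

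The downstream summits thinned out with distance and then formed a low shoulder. The median distance was 108.5 bp, with quartiles at 38.2 and 296 bp and the farthest summit at 497 bp. The first 50 bp held 136 summits and the next 50 bp held 70. From 201 to 300 bp there were 47, from 301 to 400 bp there were 46, and from 401 to 500 bp there were 62. The median distance was 87.0 bp in replicate 1, 137 bp in replicate 2 and 112 bp in replicate 3, a mean of 112 bp ± 25 (SD, n = 3). No test was made, since position chose these summits.

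**Figure D1:**
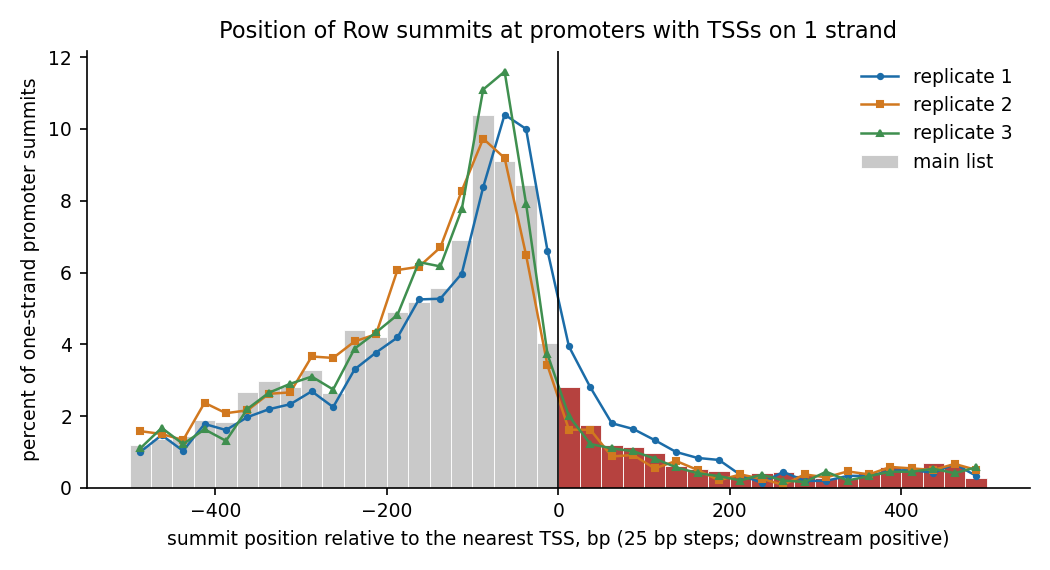
Position of summits at promoters with TSSs on 1 strand, in bp from the nearest TSS (x axis, 25 bp steps), as a percentage of all such summits of the list (y axis). Bars are the main list, red where downstream, and lines with symbols are the 3 replicates; the step just past the TSS holds 2.80% in the main list, against 3.94% in replicate 1, 1.62% in replicate 2 and 2.00% in replicate 3.

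Just inside the near limit, the summits at Ufsp1, which encodes a protease for the ubiquitin-like protein UFM1, and at Smn, the survival motor neuron gene, lay 1 bp downstream with signal values of 2157 and 632. Just outside it, CG12081 and CG13585 had summits on the TSS, with 410 and 349, and CG5510 and CG10336 had summits 1 bp upstream, with 631 and 445. The summit offset was read as counted from 0, and a count from 1 would move every summit by 1 bp, so placements on or next to the TSS are uncertain by that much. At the far limit, CG9815 lay at 497 bp with a signal value of 52.3 and Mtp, a lipid transfer protein of lipoprotein assembly, at 495 bp with 1105. Beyond it, Tusp lay at 501 bp with 165 and CG5854 at 502 bp with 215.

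The strongest downstream peaks were strong in every replicate. They were chosen by the main list's signal values, of which no replicate is independent, so high replicate values follow in part from that choice. A signal value is the enrichment of a peak as the authors' caller gave it, and it is compared only within a list. CG31612, with its summit 489 bp downstream in a first intron, had a signal value of 3980 and rank 55 of the main list. In the replicates its peak had signal values of 1213, 1476 and 1307, at ranks 81, 56 and 47. GstE13, a glutathione S-transferase, had 3975 in the main list, and 1308, 1393 and 1303 in the replicates, with the summit 71 bp into the 5′ UTR. Both were among the strongest 100 peaks of the main list and of each replicate.

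The peak of sqh, the regulatory light chain of non-muscle myosin, had 848, 1031 and 877 in replicates 1 to 3, with its summit 115 bp downstream and 6 bp into the first intron. That of Vinc, the adhesion protein vinculin, had 786, 705 and 770, with the summit 13 bp into the first intron. The peak of ph-p, a subunit of Polycomb repressive complex 1, had 896, 1249 and 853, with the summit 411 bp downstream in the 5′ UTR. In each replicate the peak of Vinc was below those of sqh and ph-p. The neighbouring gene ph-d, a near copy of ph-p, had 439, 316 and 201 at 114 bp; reads shared by such copies may be placed at either, so these values are uncertain.

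Eip75B, a nuclear receptor induced by the moulting hormone ecdysone, had 899, 692 and 556, with the summit 50 bp downstream of the TSS. Sik3, a kinase of metabolic control, had 874, 603 and 719 at 200 bp in the first intron. CG2811 had 1338, 941 and 956, and its summit, 3 bp downstream in the main list, was at -7 bp in replicate 1. The other genes among the 12 strongest were CG9399 (2259 in the main list), CG4497 (2256) and CG18622 (2208), all with summits in a 5′ UTR, and Ufsp1. All 12 were listed in the 3 replicates, of which the ranking is not independent. Many of these summits were also in front of a further TSS of the same gene, within 500 bp. That TSS lay 128 bp farther downstream at GstE13, 100 bp at CG2811, 248 bp at sqh and 164 bp at CG9399. It lay 159 bp farther at CG4497, 420 bp at CG18622, 112 bp at Vinc and 106 bp at Ufsp1. CG31612, ph-p, Sik3 and Eip75B had no such TSS within 500 bp.

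**Figure D2:**
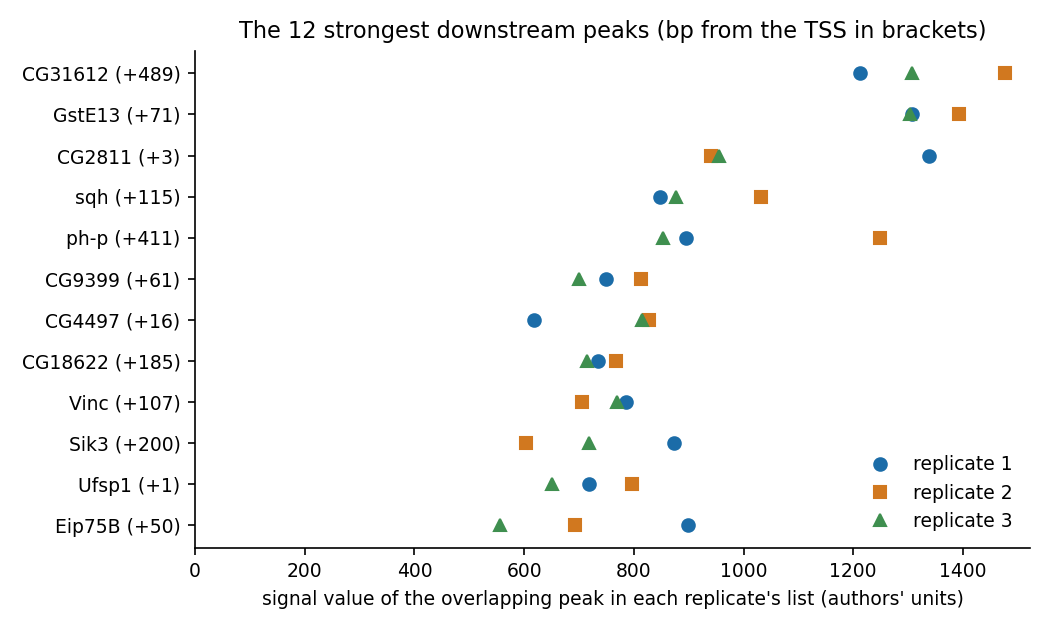
Signal value of the overlapping peak in each replicate's list (x axis, authors' units) for the 12 strongest downstream peaks (y axis, gene and bp from the TSS in the main list); symbols are the replicates. Values compare within a replicate only; CG31612 is the highest in replicates 2 and 3 and CG2811 in replicate 1, at 1338.

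Most downstream peaks were weaker than those in front of the TSS. The median signal value was 220 in the 438 downstream peaks, 381 in the 2552 peaks upstream of one-strand promoters and 280 over the whole list. Expressed as a percentile within the list, the median was 38.9 downstream and 61.8 upstream. It was 48.2 at 501 to 1000 bp and 39.9 over 1000 bp from a TSS, the latter near the downstream value. In the replicates' own lists the downstream medians were 30.6, 45.2 and 46.8 and the upstream medians 58.7, 60.3 and 59.1. The groups did not overlap, and downstream was lower in 3 of 3 replicates, with a mean difference of -18.6 percentile points (SD 8.45). The exact two-sided sign-flip permutation test over the 3 differences gave p = 0.25, the smallest that 3 replicates allow, and 0.307 after Benjamini-Hochberg adjustment over 27 measures, so no measure here could pass 0.05.

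The range within the members was wide, from 2.19 at nudE, a dynein regulator, to 3980, and 40 of 438 (9.13%) were in the strongest 10% of the list. Of the members, 105 (24.0%) were on arm X, where 21.4% of the upstream peaks lay; the replicates gave 21.4%, 23.5% and 26.0% downstream and 20.3%, 20.7% and 21.3% upstream (exact sign-flip p 0.25, higher in 3 of 3). A width of 436 bp, the most frequent in the list, was held by 48.6% of the members, 41.2% of all peaks, 52.7% of peaks over 1000 bp from a TSS and 28.2% of the upstream peaks. In the replicates the median widths differed by 0, 15.5 and 25 bp (exact sign-flip p 0.5, adjusted 0.54).

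Fewer downstream than upstream peaks were found again in every replicate. Of the members, 240 of 438 (54.8%) overlapped a thresholded peak in all 3 replicates. The share was 62.1% over all peaks of the list and 73.2% of the upstream peaks. It was 60.5% at 501 to 1000 bp and 51.4% over 1000 bp from a TSS, so it was not particular to the members. The exact Clopper-Pearson 95% interval of the members' share, 50 to 59.5, holds counting error only. It treats peaks as independent and is no test against the other shares. Another 33 members (7.53%) were in none of the thresholded replicate lists, against 6.71% of all peaks, and 61 (13.9%) were in replicate 1 alone, against 9.69%. Over 1000 bp from a TSS, 9.53% were in none and 12.1% in replicate 1 alone. Before the reproducibility threshold, 404 members (92.2%) met a peak in all 3 replicates, against 94.7% of all peaks and 96.8% of the upstream peaks, and 2 met none. Between replicates, the share of downstream peaks that overlapped both other lists was 40.9%, 76.5% and 79.9%, against 64.6%, 85.4% and 84.2% upstream; it was lower in 3 of 3 replicates, and the exact sign-flip permutation p was 0.25. List length moved with this share, replicate 1 being the longest and lowest, and its part in the difference was not tested.

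**Figure D3:**
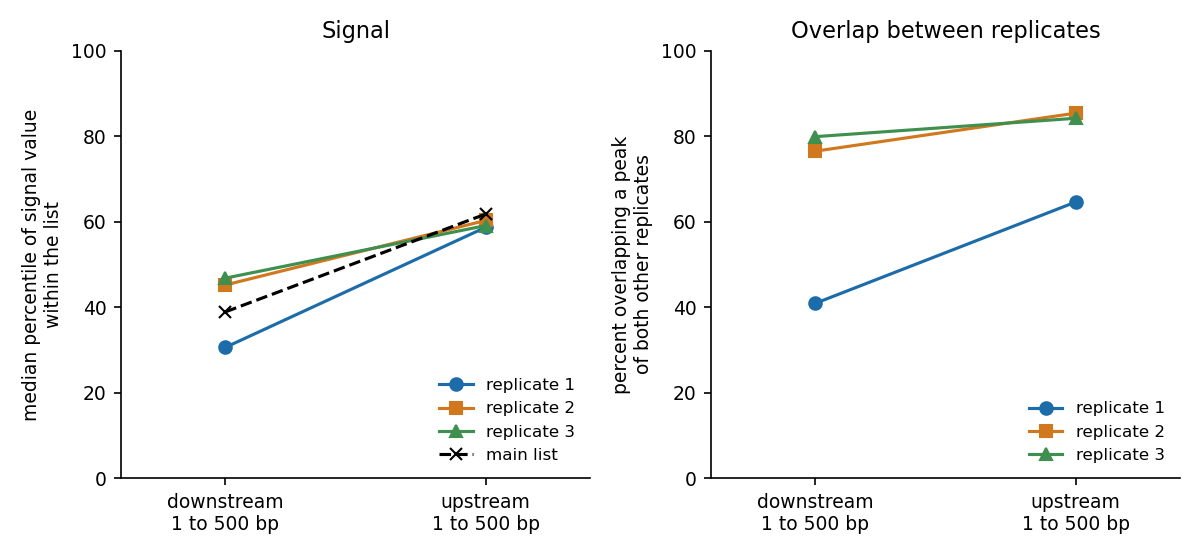
Downstream against upstream one-strand promoter peaks (x axis) for the median percentile of the signal value within each list (left, y axis 0 to 100) and the percentage that overlaps a peak of both other replicates (right). Each line is a replicate, and the dashed line is the main list; every line is lower downstream, and replicate 1 is the lowest in both panels, at 30.6 and 40.9.

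The position itself was repeatable in part. Where a member met a replicate peak, the replicate summit was also downstream of the same TSS in 86.7%, 84.8% and 82.7% of cases in replicates 1 to 3, and the median shift was 14.0, 15.5 and 15.0 bp. Of the 240 members in all 3 lists, 182 (75.8%) were downstream in each. Among summits in first introns, with a median distance of 354 bp, this count was 75 of 76. Among those in the 5′ UTR, with a median distance of 48.0 bp, it was 90 of 145. With shifts this small, summits far from the TSS could rarely change side, so the count depends on distance. Summits a few bp past the TSS thus changed side: that of eIF4E1, the cap-binding translation factor, lay 5 bp downstream in the main list, at -26 and -14 bp in replicates 1 and 2 and 13 bp downstream in replicate 3.

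By the transcripts that start at the TSS, 261 summits (59.6%) lay in the 5′ UTR of the first exon, 133 (30.4%) in the first intron, 20 (4.57%) in a coding exon and 24 (5.48%) in other positions or where transcripts differed. In the replicates the first intron held 21.7%, 38.8% and 33.2%, a mean of 31.2% ± 8.68 (SD, n = 3). The class changed with distance. In the first 50 bp, 99.3% were in the 5′ UTR, and from 201 to 500 bp 108 of 155 (69.7%) were in the first intron and 7 (4.52%) in a coding exon. At those same distances from every annotated TSS, 28.5% of positions are in the first intron and 45.4% in coding exons. The replicates gave 74.7% ± 3.27 for the first intron and 3.99% ± 1.61 for coding exons (SD, n = 3), so the distance to the genome's share was larger than the spread between replicates in both classes. The genome's share was not matched for gene length, whose median was 5134 bp at the members and 5147 bp at the upstream peaks. Counted by gene, it was 2164.5 bp over all protein-coding genes. The part of gene length in the distance to the genome's share was not tested. For the 5′ UTR, 16.8% of members and 14.5% of all positions at 201 to 500 bp differed by no more than the replicates' SD, with a mean of 14.6% ± 2.32.

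**Figure D4:**
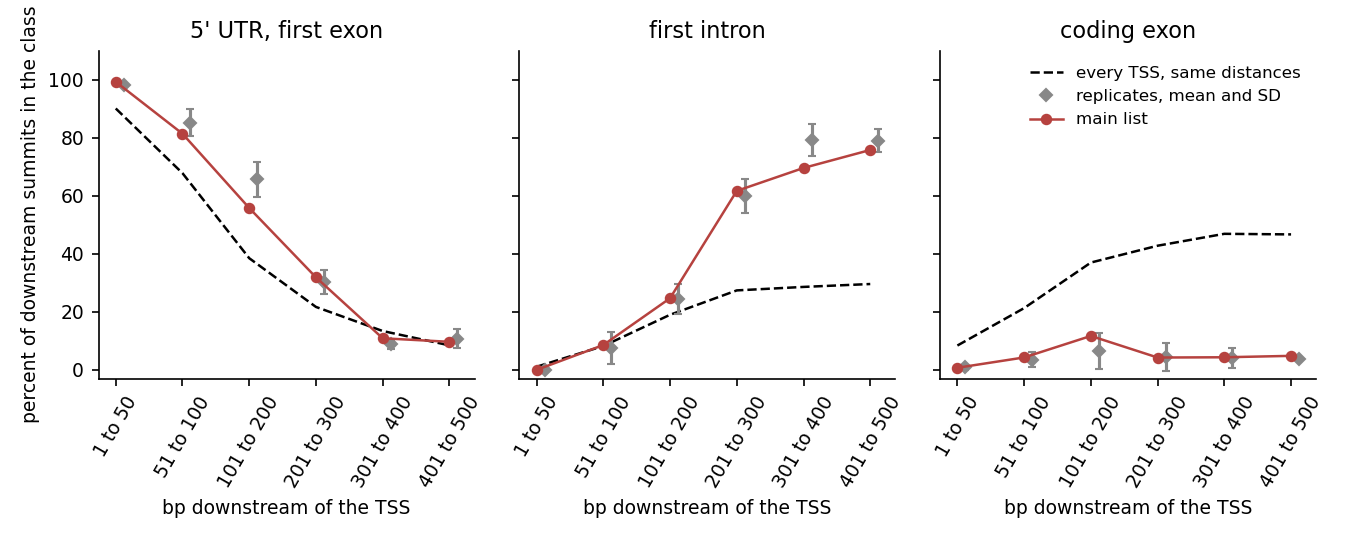
Percentage of downstream summits (y axis) in the 5′ UTR of the first exon, the first intron and coding exons, by distance from the TSS (x axis, bp). Red points are the main list, grey diamonds the mean and SD of the 3 replicates and the dashed line the share at the same distances over every TSS; from 401 to 500 bp the first intron holds 75.8% in the main list and 29.6% over every TSS.

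The summits in first introns lay a median of 151 bp past the exon-intron junction (quartiles 90 and 246), and 42 of 133 (31.6%) were within 100 bp of it. Their first introns had a median length of 897 bp and their first exons one of 142 bp. The limit of 500 bp bounds all 3 values, since it favours short first exons and long introns, so they were set beside first-intron positions at the same distances from every TSS. There the medians were 121 bp past the junction, 750 bp of intron and 160 bp of first exon, with 44.6% of positions within 100 bp of the junction. The median percentile of signal was 47.0 for first-intron members and 35.9 for 5′ UTR members. In the replicates it was 43.4, 43.8 and 48.5 for the intron and 29, 44.1 and 43.0 for the UTR, groups that overlap.

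The strongest intronic summits after those of CG31612, sqh and Vinc included Cftr, the fly homologue of a chloride channel, 195 bp downstream with 712, 729 and 692 in the replicates. Mer, the tumour suppressor Merlin of the Hippo pathway, had 613, 461 and 408 at 96 bp. Dp, the partner of the cell cycle factor E2F, had 563, 519 and 334 at 407 bp. The 3 replicates placed the Cftr summit at 197, 193 and 196 bp and the Dp summit at 416, 406 and 398 bp.

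Summits in coding exons were few. In the main list their median signal value was 78.3, the 7.82 percentile, and 7 of 20 were in all 3 replicates. In the replicates' own lists the median percentile was 7.79, 46.2 and 31.6, a mean of 28.5 ± 19.4 (SD, n = 3). It was below the medians of the 5′ UTR and first-intron members in the main list and in replicates 1 and 3. In replicate 3 those medians were 43.0 and 48.5. In replicate 2 it was above those of the 5′ UTR (44.1) and first-intron (43.8) members. Coding exons held 2.08% of the 289 downstream summits of replicate 2 and 2.42% of the 289 of replicate 3. The coding-exon medians of these replicates thus rest on few summits. The strongest coding-exon members of the main list were CG44812 (261, 289 and 200 in the replicates), CG15531 (308, 206 and 169) and Got2, a mitochondrial aspartate aminotransferase (225, 120 and 82.4). Only these 3 and CG32262 exceeded the list's median signal value of 280. Of the mixed or other positions, Sfxn1-3, a mitochondrial carrier, was the strongest at 1363 in the main list, then CG5515 at 1216, and Sxl, the switch gene of sex determination, had 986 in a later intron at 395 bp.

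Genes with several starts were frequent among the members. Of the 438 summits, 330 (75.3%) were at genes with more than 1 TSS, against 51.5% of the upstream peaks and 51.2% of all peaks. At 501 to 1000 bp the share was 64.2%. The replicates gave 67.6%, 78.9% and 78.9% downstream and 50.7%, 51.1% and 50.8% upstream, a mean difference of 24.3 points (SD 6.33), higher in 3 of 3, with an exact sign-flip p of 0.25 and 0.307 adjusted. Counted by gene and not by summit, 26.5% of protein-coding genes had more than 1 TSS, a different unit. A summit between TSSs of a gene can count as downstream, so the rule favours such genes. Its part in the difference was not tested. In 222 members (50.7%) a further TSS of the same gene lay downstream of the summit, and in 108 (24.7%) it lay within 500 bp, so that the summit was also in front of a promoter. That held for 34.5% of the 5′ UTR members and 11.3% of the first-intron members. A separate Row summit within 500 bp upstream of the same TSS was present for 99 members (22.6%), and a non-coding TSS within 500 bp for 35 (7.99%). Counts of further TSSs, separate summits and non-coding TSSs were made for members only. Without the same shares over all peaks, they cannot be read as particular to the members.

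At the summits the DNA was less rich in A and T than at upstream peaks, and both were richer in A and T than other DNA at their distances. Mean GC within 100 bp was 40.0% at the members and 36.0% upstream. It was 42.1%, 38.6% and 38.9% against 37.4%, 34.9% and 35.5% in the replicates, higher downstream in 3 of 3 by a mean of 3.94 points (SD 0.732; exact sign-flip p 0.25, adjusted 0.307). Windows at the members' distances from each of 19630 TSSs had 44.6% GC, and those at the upstream summits' distances 39.6%. Position alone thus gave a difference of the same sign.

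The form of the dip was described by class. In first-intron members GC was 43.2% at -200 bp from the summit, 32.5% at the summit and 45.7% at 400 bp. First-intron positions at the same distances over every TSS had 40.6% GC within 100 bp, where the members had 36.2%, and 36.3% ± 1.01 in the replicates (SD, n = 3). In 5′ UTR members GC was 36.8% at -200 bp, 43.0% at -40 bp, 39.5% at 40 bp and 47.7% at 160 bp, a shallow dip just past the summit between a lower level before it and a higher one after it. Their mean within 100 bp was 41.3%, and 41.4% ± 1.60 in the replicates, where 5′ UTR positions of every TSS had 43.3%.

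**Figure D5:**
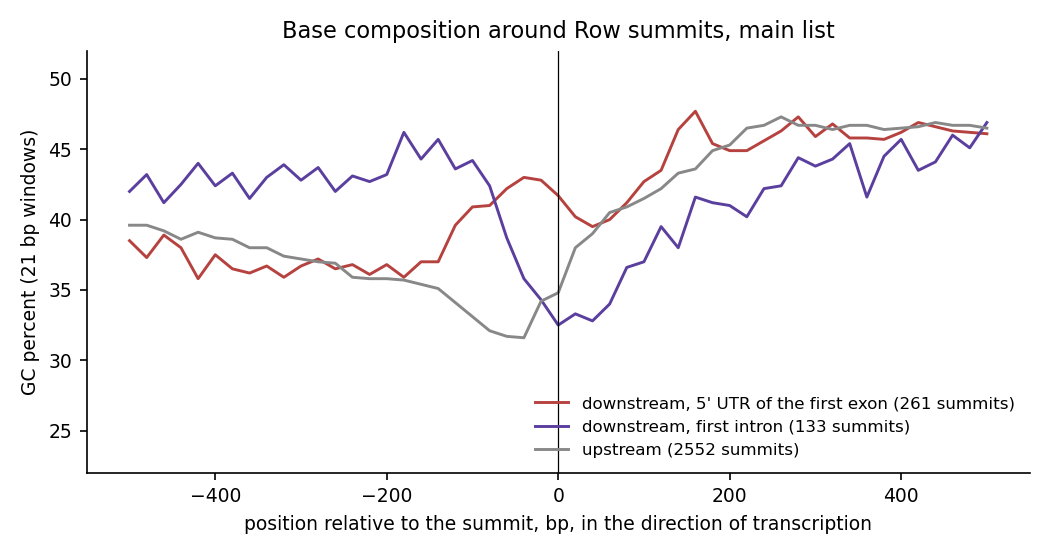
GC percentage in 21 bp windows (y axis) by position relative to the summit in bp, in the direction of transcription (x axis), main list. The first-intron members have a trough at the summit, 32.5% at 0 bp, and the 5′ UTR members a shallow one, from 43.0% at -40 bp to 39.5% at 40 bp, between 36.8% at -200 bp and 47.7% at 160 bp.

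A run of 8 or more A or T lay within 50 bp of the summit in 74.4% of first-intron members, against 49.6% in flanks 1000 bp away and 58.8% at first-intron positions at the same distances from every TSS. The replicates gave 72.5% ± 6.20. For 5′ UTR members the share was 60.2%, with 44.4% in the flanks, 52.1% at 5′ UTR positions of every TSS and 59.5% ± 6.91 in the replicates, and 74.1% of upstream peaks and 77.3% of all peaks held such a run.

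Motif matches were counted within 100 bp of the summit on both strands for 15 motifs. The backgrounds are the same windows centred on 19276 TSS positions, and windows at the members' or the upstream summits' distances from each of 19630 TSSs. TCAGT was in 149 members (34.0%), in 43.4% of the windows on the TSS and in 35.5% of those at the members' distances. CGATA was in 144 members (32.9%), below the 37.1% of windows on the TSS and above the 28.4% at the members' distances. TATAAA was in 134 (30.6%), against 26.9% and 19.6%. Against the upstream peaks, the share with TCAGT differed by 4.38, 2.04 and 3.6 points in replicates 1 to 3. That with CGATA differed by -7.27, -3.58 and -4.25 points, and that with TATAAA by -9.47, -9.74 and -5.88. Each kept its sign in 3 of 3 replicates, with an exact permutation p of 0.25. Windows at the upstream summits' distances held TCAGT in 34.0%, CGATA in 31.9% and TATAAA in 30.7%. Position alone thus gave differences of the same signs for these 3 motifs.

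The DRE was in 28 members (6.39%), in 6.44% of TSS windows and in 8.97% of the upstream peaks. Windows at the members' distances held it in 2.58% and those at the upstream summits' distances in 4.46%, a difference of the same sign. It was in 9.96% of 5′ UTR members, against 4.32% of 5′ UTR positions at the same distances over every TSS, and in 1.50% of first-intron members, against 0.561%. Of the 3 shown, the match at RpL26, a protein of the large ribosomal subunit, lay at -77 bp from the summit and -14 bp from the TSS. That at Karybeta3, a nuclear import receptor, lay at -62 bp from the summit and 13 bp downstream of the TSS, and that at cnc, a bZIP factor of the oxidative stress response, at -92 bp from the summit and 255 bp downstream.

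The CA repeat was in 34 members (7.76%), in 2.27% of upstream peaks, in 3.99% of TSS windows and in 4.86% of windows at the members' distances. Windows at the upstream summits' distances held it in 3.87%. In the replicates it was in 9.0%, 5.54% and 4.5% of downstream and 2.87%, 1.80% and 2.04% of upstream peaks, a mean difference of 4.11 points (SD 1.86), higher in 3 of 3 with an exact permutation p of 0.25. The flanks of the members 1000 bp away held it in 5.82%, and first-intron positions over every TSS in 9.15%, above the 7.52% of first-intron members. AACAACA was in 10.7% of members, 6.82% of upstream peaks, 9.59% of the members' flanks and 8.54% of windows at the members' distances. At the upstream summits' distances 7.87% of windows held it.

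The other motifs are given as the share of members, of windows on the TSS and of windows at the members' distances, with no test against either. GGTCACAC, motif 1 of fly core promoters bound by M1BP, was in 4.34%, 5.68% and 2.74%, and CATCNCTA, Ohler motif 7, in 4.79%, 4.46% and 2.65%. GTATTTT, Ohler motif 6, was in 10.5%, 10.7% and 7.13%, and CAGCTG, an E-box, in 12.6%, 13.4% and 11.8%. All 4 were above the windows at the members' distances.

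GAGAGAG, the GAGA site, was in 4.57% of members, 4.68% of windows on the TSS and 2.89% of those at the members' distances. CAGGTAG, the site of the early embryonic factor Zelda, was in 0.685%, 1.08% and 1.29%, and GGGCGG, a GC box, in 5.48%, 4.68% and 6.80%. AAAAAAAA was in 13.5%, 10.5% and 9.17% and ATATATA in 9.59%, 7.76% and 6.51%.

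Elements were also counted at the members' TSSs themselves. TATAAA at -45 to -15 bp was at 3.42% of the members' TSSs, 3.41% of the upstream peaks' and 7.76% of all, and TCAGT at -8 to 8 bp at 9.36%, 13.8% and 11.7%. GAGAGAG at -250 to 50 bp was at 13.5%, 11.1% and 7.64%. In the replicates GAGAGAG was at 12.6%, 12.1% and 12.8% of downstream and 12%, 11.5% and 10.7% of upstream TSSs, higher in 3 of 3 by a mean of 1.1 points (SD 0.906; exact sign-flip p 0.25, adjusted 0.307). In the same window the DRE was at 9.59%, 10.5% and 7.98%, GGTCACAC at 6.85%, 9.09% and 6.72%, and CATCNCTA at 4.79%, 8.62% and 5.66%, each lower at members than at upstream peaks of the main list.

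Among partners of Row, woc itself had a member peak, 379 bp downstream and 59 bp into the first intron, with signal values of 157, 104 and 119 in the replicates. Another woc member lay 176 bp downstream in the 5′ UTR, with 58.5 in replicate 1. In replicates 2 and 3 it overlapped the same peaks as the intronic member. The gene woc was 1 of 6 genes of that list. Read against the 2.92% of all protein-coding genes, the counts of genes with a member in the other lists were as follows. The 2.92% covers genes with and without a promoter summit. A list rich in promoter summits of any kind can thus exceed it without a preference for downstream positions.

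Of 38 Polycomb and trithorax group genes, which keep genes silent or active, 6 had a member: ph-p, Trl, ph-d, ash2, Su(z)2 and Utx (15.8%). The replicates gave 8, 6 and 6. A promoter summit of any kind was at 26 of the 38 genes (68.4%). Trl, which encodes the GAGA factor, had 276, 420 and 315 at 136 bp, and ash2, a subunit of a histone methyltransferase complex, had 154, 84.8 and 63.8 at 13 bp. Of 19 genes listed as insulator and core promoter factors, 4 had a member (21.1%): lolal, Trl, pita and nej, with 5 in each replicate. The list is a loose one, since nej encodes a coactivator, and Trl is also counted in the list above. In this list 16 genes (84.2%) had a promoter summit of any kind. Lolal, a BTB protein that binds the GAGA factor, had 639, 412 and 257 at 34 bp, all above the values of ash2. Su(var)2-HP2, which binds HP1, was the member among 20 heterochromatin genes (5.0%), with 87.5, 79.1 and 182 at 4 bp.

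Of 47 cytoskeleton and adhesion genes, 8 had a member (17.0%): sqh, Vinc, Moe, if, scrib, Act5C, sdt and alphaTub84B. The replicates gave 8, 2 and 4, and no replicate but the first equalled the main count. A promoter summit of any kind was at 34 of the 47 genes (72.3%). Act5C, a cytoplasmic actin, was listed with 72.8 in replicate 1 and in neither other replicate, and scrib, a polarity scaffold, with 95.1 in replicate 1 alone. By contrast the integrin gene if had 93.9, 87.2 and 54.8.

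Of 92 cytosolic ribosomal protein genes 9 had a member (9.78%; replicates 9, 5 and 6), while 77 had a promoter summit of any kind. RpL26 had 323, 644 and 693 with the summit 63 bp downstream in the first intron, and RpL5 had 204, 229 and 322 at 97 bp in the 5′ UTR. Translation factors had 3 of 38 (7.89%), Thor, eIF4E1 and eIF3b; Thor, the inhibitor of eIF4E, had 125, 65.6 and 49.5. Mitochondrial ribosomal proteins had 1 of 73 (mRpS5; 103, 184 and 206), and aminoacyl-tRNA synthetases 1 of 33 (HisRS, listed in none of the thresholded replicates). Proteasome subunits had 2 of 32, Rpn10 (245, 213 and 272) and Prosbeta6.

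Among genes of RNA polymerase II, 2 of 23 pausing and elongation factors had a member (8.70%): hyx, a subunit of the Paf1 complex, with 461, 232 and 274 at 89 bp, and CycK, a cyclin of transcriptional kinases, with 173, 252 and 278 at 56 bp. General transcription factors had 1 of 47, the Mediator subunit MED26, with 82.4, 156 and 276 at 457 bp in the first intron. Splicing factors had 0 of 35, although 22 had a promoter summit.

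Cell cycle and replication genes had 3 of 45 (Dp, Cdk4 and asp), ecdysone genes 2 of 25 (Eip75B and woc) and small GTPases of the Rab and Arf families 2 of 38. Rab5, of early endosomes, had 604 in the main list at 377 bp, and Rab11, of recycling endosomes, 239 at 11 bp. Axon guidance and synapse genes had 3 of 49: Nrx-1, a synaptic adhesion protein, with 446, 336 and 368, dlg1, a scaffold of septate junctions and synapses, with 293, 430 and 189, and Fas2. Signalling components had 2 of 64, Mer and shn. Segmentation, Hox and neural transcription factors had 1 of 62 (ttk, with no thresholded peak in any replicate), a share of 1.61%. Vacuolar ATPase subunits (33), odorant and gustatory receptors (119) and cuticle proteins (120) had 0, and 15, 1 and 1 of them had any promoter summit.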

How the data were processed

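Peak lists from 3 ChIP-seq replicates of row-GFP embryos were used. Per the labels, coordinates refer to dm6; no source used here names the aligner or peak caller. The deposited score is a scaled irreproducible discovery rate (IDR), the deposited signal value is the enrichment from the authors' caller, and the deposited ranked lists hold the −log10 of the IDR. The main list had a global IDR threshold of 0.01; its replicates were inferred from shared intervals. Depth is unknown.

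Summits were set against TSSs of Ensembl release 115 on 7 arms; 0, 3 and 27 thresholded peaks of replicates 1, 2 and 3 lay elsewhere. Overlap needed 1 bp. Downstream and upstream summits were compared by exact sign flips over the 3 replicates, on code tested on simulated data (Python 3.11.15, numpy 2.4.6, pandas 2.3.3, scipy 1.17.1, matplotlib 3.10.9). No test was made across peaks or gene lists. Alternatives were other windows, annotations, overlaps and lists. The members, 22 gene lists and 15 motifs were chosen with earlier results of these data known. Named are the 12 strongest members, the 3 strongest of each class, those at the limits, up to 2 per list and those with a printed motif match. Others were named after their values were seen, such as ph-d, rudhira, cnc, Karybeta3, ash2 and Act5C. Sequences are from RefSeq's dm6.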

Additional observations from a re-analysis of the deposited data

Results flagged for a closer look

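Downstream summits also appeared in lists that the comparisons did not use. Of the ranked peaks of replicates 1 and 2 that passed the threshold but were missing from the main list, 6 of 174 were downstream: wdb, a regulatory subunit of protein phosphatase 2A, with a signal value of 490 at 44 bp, CG4297 with 369, Arts with 359, COX7AL2 with 316, isoQC with 59.4 and puc, a phosphatase of the JNK pathway, with 8.38. The pooled list held 653 downstream summits among 13285, and 244 of them overlapped no peak of the main list. The highest signal value of these 244 was 258 and the median 92.4; InR, the insulin receptor, rl, the ERK kinase, and CG10470 were the strongest. Neither set has a control value beside it. The share of all 13285 pooled peaks that overlap no peak of the main list was not counted. The 244 thus cannot be read as a trait of downstream peaks. Groups of 3 replicates were too small for a check of single outlying samples.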

How the results depend on the processing

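No paired analysis was possible because there was 1 group only, with no second group to pair with it; the sign flips compare peaks within each replicate. The main values were 14.6% of one-strand promoter summits downstream, a median distance of 108.5 bp, 54.8% of members in all 3 replicates, 30.4% in first introns, a difference from upstream peaks of -22.9 in median signal percentile and one of 1.73 points in the share with TCAGT. The signal difference kept its direction in every alternative run.

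With a window of 250 bp the distance was 57.5 bp, the share in all replicates 59.6% and the intron share 10.9%; with 1000 bp the downstream share was 22.9%, the distance 534 bp and the intron share 54.8%. With summits at least 50 bp downstream they were 10.2%, 206 bp and 43.6%, and the TCAGT difference was -0.485. At genes with 1 TSS the downstream share was 8.02%, the distance 66.5 bp, the share in all replicates 49.1% and the TCAGT difference -0.811. The cause of these sign changes was not tested.

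The share in all replicates was 66.6% at a score of 1000, 37.4% with an overlap of 50% or more and 47.5% with summits within 100 bp. In replicates 1, 2 and 3 alone the share overlapping both others was 40.9%, 76.5% and 79.9%; the downstream share was 18.5% in replicate 1, and the distance 137 bp in replicate 2.

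Without replicate 1 or 2 (the main list is itself without replicate 3), the ranges were 14.6 to 15.1%, 105 to 125 bp, 52.6 to 58.1%, 28.9 to 30.7%, -25.4 to -23.5 and 0.667 to 2.24 points, in the order given first. Leaving out peaks of replicate 1 alone, chosen after seeing the data, gave -20.9 for the signal difference and 32.6% for introns, and counting any transcript, likewise, 34.2% for introns. Depth is unknown, and most members absent from a thresholded list met a peak there before the threshold, so absence from a list does not show that binding was absent.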
